A study of Mus musculus with 18 samples.

Results

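The loci of 9 regulators of proliferation and the cell cycle were examined, *Myc*, *Mycn*, *Ccnd2*, *Ccnd3*, *Cdk6*, *Cdkn1a*, *Cdkn1b*, *Cdkn2c* and *E2f1*, out of 22367 protein-coding loci. The genes were chosen by name, with earlier results of these data known. Each locus was the mm9 span of the gene in GENCODE vM1 plus 20 kb on either side, between 45 kb (*Myc*) and 219 kb (*Cdk6*), and the 9 loci held 136 of the 102131 sites bound by C/EBPα, C/EBPβ or PU.1 in the series. The cells were C10, a derivative of the HAFTL mouse pre-B line that carries a C/EBPα-estrogen receptor fusion tagged with GFP (C/EBPαER-GFP) in every sample. Treatment with β-estradiol (β-Est, 100 nM in the labels, while the study's methods text gives another concentration), with IL-3 and CSF-1, moves the fusion into the nucleus and turns the cells into macrophage-like cells. Control cells received ethanol, the solvent. ChIP-seq was made for C/EBPα in 8 libraries (0 h, 10, 30 and 60 min, 3, 12, 24 and 48 h of induction) and in 5 libraries each for C/EBPβ and for PU.1 (0, 3, 12, 24 and 48 h). All are from 1 engineered line, the fusion is made from an introduced construct, and binding data give no marker with which the cell type could be checked.

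C/EBPα and C/EBPβ are bZIP factors that bind the same DNA word and drive myeloid genes, and C/EBPα is also known for arresting the cell cycle. PU.1, an ETS factor, is present in both B cells and macrophages. In the cell cycle, D-type cyclins with Cdk4 or Cdk6 phosphorylate the Rb proteins, which releases E2F factors and starts S phase. Myc pushes in the same direction, and the inhibitors p21 (*Cdkn1a*), p27 (*Cdkn1b*) and p18 (*Cdkn2c*) hold the kinases back.

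Each factor and time point had 1 library, so that no difference between libraries could be tested, and differences are given as ratios with 95% intervals that cover counting error only. After reads of the same position and strand were counted once, depth ranged from 5970869 to 24917810 reads in the C/EBPα libraries, from 2903580 to 5844202 in those of C/EBPβ and from 6575348 to 11349746 in those of PU.1. The C/EBPα libraries of 10, 30 and 60 min had 50-base reads from another sequencer than the rest, so that early time and sequencer cannot be told apart. A region was called where a 200-bp window held 7 to 15 reads or more, depending on depth, and stood out 4-fold from the surrounding 10 kb, and calls with centres within 200 bp were counted as 1 site. Calls were joined in chains, so that centres in a site could lie more than 200 bp apart. A level below counts reads up to 100 bp from where the factor was centred (from the site's centre where that factor was not called), per 10000000 reads of the library. A site is named by its distance from the annotated start of the gene, upstream or downstream in the direction of transcription.

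The DNA under the sites that the results turn on is shown first, as 200 bases of the mm9 plus strand around the centre of the C/EBPα call (for *Ccnd2* of the PU.1 call, and for *E2f1* also of the C/EBPβ call at 4.47 kb). Capitals mark the words searched on both strands, which were TTGCNNAA (C/EBP), GAGGAAGT (PU.1), TGANTCA (AP-1), TGTGGTT (RUNX) and TCCCNNGGG (EBF1). The *Myc* upstream site and the distal *Cdkn1a* site bound late are shown because they hold the C/EBP word, and the others are examples of strongly bound sites without it.
*Myc*, 1.79 kb upstream (chr15:61815072-61815271, plus strand): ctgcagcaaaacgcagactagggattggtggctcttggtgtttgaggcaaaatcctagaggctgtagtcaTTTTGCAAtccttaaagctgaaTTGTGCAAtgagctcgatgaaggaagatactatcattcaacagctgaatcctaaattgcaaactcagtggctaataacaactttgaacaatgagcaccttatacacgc
*Ccnd2*, 12 kb upstream (chr6:127112937-127113136, plus strand): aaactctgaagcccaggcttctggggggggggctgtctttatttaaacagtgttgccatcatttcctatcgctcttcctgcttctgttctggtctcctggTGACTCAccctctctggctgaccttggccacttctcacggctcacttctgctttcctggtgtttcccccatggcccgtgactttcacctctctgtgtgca
*Ccnd3*, 37.1 kb downstream (chr17:47679044-47679243, plus strand): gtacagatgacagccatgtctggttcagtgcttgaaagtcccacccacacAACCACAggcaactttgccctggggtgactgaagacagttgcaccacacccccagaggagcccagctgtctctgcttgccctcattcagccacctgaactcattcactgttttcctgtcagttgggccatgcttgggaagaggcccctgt
*Ccnd3*, 90.6 kb downstream (chr17:47732507-47732706, plus strand): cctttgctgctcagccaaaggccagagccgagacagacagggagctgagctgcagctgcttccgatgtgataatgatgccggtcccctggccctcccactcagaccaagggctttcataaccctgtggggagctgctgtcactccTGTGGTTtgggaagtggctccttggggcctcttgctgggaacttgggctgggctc
*Cdk6*, 61.4 kb downstream (chr5:3405167-3405366, plus strand): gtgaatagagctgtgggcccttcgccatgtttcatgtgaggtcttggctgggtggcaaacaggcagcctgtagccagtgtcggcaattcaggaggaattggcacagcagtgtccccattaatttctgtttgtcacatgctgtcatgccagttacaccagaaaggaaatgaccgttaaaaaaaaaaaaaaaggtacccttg
*Cdk6*, 159 kb downstream (chr5:3502667-3502866, plus strand): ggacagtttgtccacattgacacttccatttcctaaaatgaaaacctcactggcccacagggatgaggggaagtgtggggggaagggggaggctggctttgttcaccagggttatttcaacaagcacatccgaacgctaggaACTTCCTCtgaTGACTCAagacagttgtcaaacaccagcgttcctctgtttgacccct
*Cdkn1a*, 11.9 kb upstream (chr17:29215875-29216074, plus strand): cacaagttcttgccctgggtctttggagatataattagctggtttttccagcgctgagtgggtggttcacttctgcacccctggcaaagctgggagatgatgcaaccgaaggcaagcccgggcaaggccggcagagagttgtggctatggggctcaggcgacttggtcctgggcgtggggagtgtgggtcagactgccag
*Cdkn1a*, 20.5 kb downstream (chr17:29248417-29248616, plus strand): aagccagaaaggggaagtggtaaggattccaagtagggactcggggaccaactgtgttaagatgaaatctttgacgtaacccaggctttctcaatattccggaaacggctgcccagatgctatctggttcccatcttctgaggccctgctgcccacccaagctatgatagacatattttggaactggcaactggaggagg
*Cdkn1a*, 23.1 kb downstream (chr17:29250960-29251159, plus strand): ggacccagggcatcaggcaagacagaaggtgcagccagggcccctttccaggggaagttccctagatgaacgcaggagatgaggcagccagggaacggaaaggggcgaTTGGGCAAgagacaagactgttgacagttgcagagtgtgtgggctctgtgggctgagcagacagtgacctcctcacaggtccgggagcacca
*E2f1*, 4.74 kb upstream (chr2:154400264-154400463, plus strand): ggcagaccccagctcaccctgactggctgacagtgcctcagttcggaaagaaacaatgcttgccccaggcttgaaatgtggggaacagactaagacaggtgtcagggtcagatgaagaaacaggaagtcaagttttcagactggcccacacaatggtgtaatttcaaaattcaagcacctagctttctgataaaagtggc
*E2f1*, 4.47 kb upstream (chr2:154400012-154400211, plus strand): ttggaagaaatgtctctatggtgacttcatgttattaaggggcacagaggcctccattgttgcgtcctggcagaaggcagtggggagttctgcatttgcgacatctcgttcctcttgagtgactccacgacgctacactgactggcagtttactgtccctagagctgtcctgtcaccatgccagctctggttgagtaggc
The *Myc* sequence holds the C/EBP word at 2 places, and the *Cdkn1a* sequence at 23.1 kb at 1 place. The *Cdk6* sequence at 159 kb holds a PU.1 word close to an AP-1 word, the *Ccnd2* sequence an AP-1 word, and both *Ccnd3* sequences a RUNX word. None of the 5 words occurs in the other sequences, which says only that these letters are absent from the window.

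Of the 9 loci, 8 had a site of each of the 3 factors, and *Mycn*, the paralog of *Myc*, had none of any factor. Over all protein-coding loci a site was called in at least 1 library in 61.8% for C/EBPα, 44.0% for C/EBPβ and 77.8% for PU.1, and a site of each factor in 41.3%. Before induction 6 members had a C/EBPα site (14.1% of all loci), 5 a C/EBPβ site (5.88%) and 8 a PU.1 site (62.4%). The study also reports weak C/EBPα signal in uninduced cells and proposes that the transgene is somewhat leaky. Whether the fusion or native C/EBPα gave the 0 h calls was not tested. At 48 h, 8 members had a site of C/EBPα (31.1% of all loci), of C/EBPβ (41.2%) and of PU.1 (66.3%). *Ccnd2* and *Cdkn2c* were the members without a C/EBPα site at 0 h and with one at 48 h. Loci differ in length, so density was compared as well: the members' median was 11.1 C/EBPα sites per 100 kb against 1.8 over all loci, 5.93 against 0 for C/EBPβ, and 11.1 against 4.6 for PU.1. The members were picked by name, not at random, and nothing particular to them is read from these densities.

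**Figure D1:**
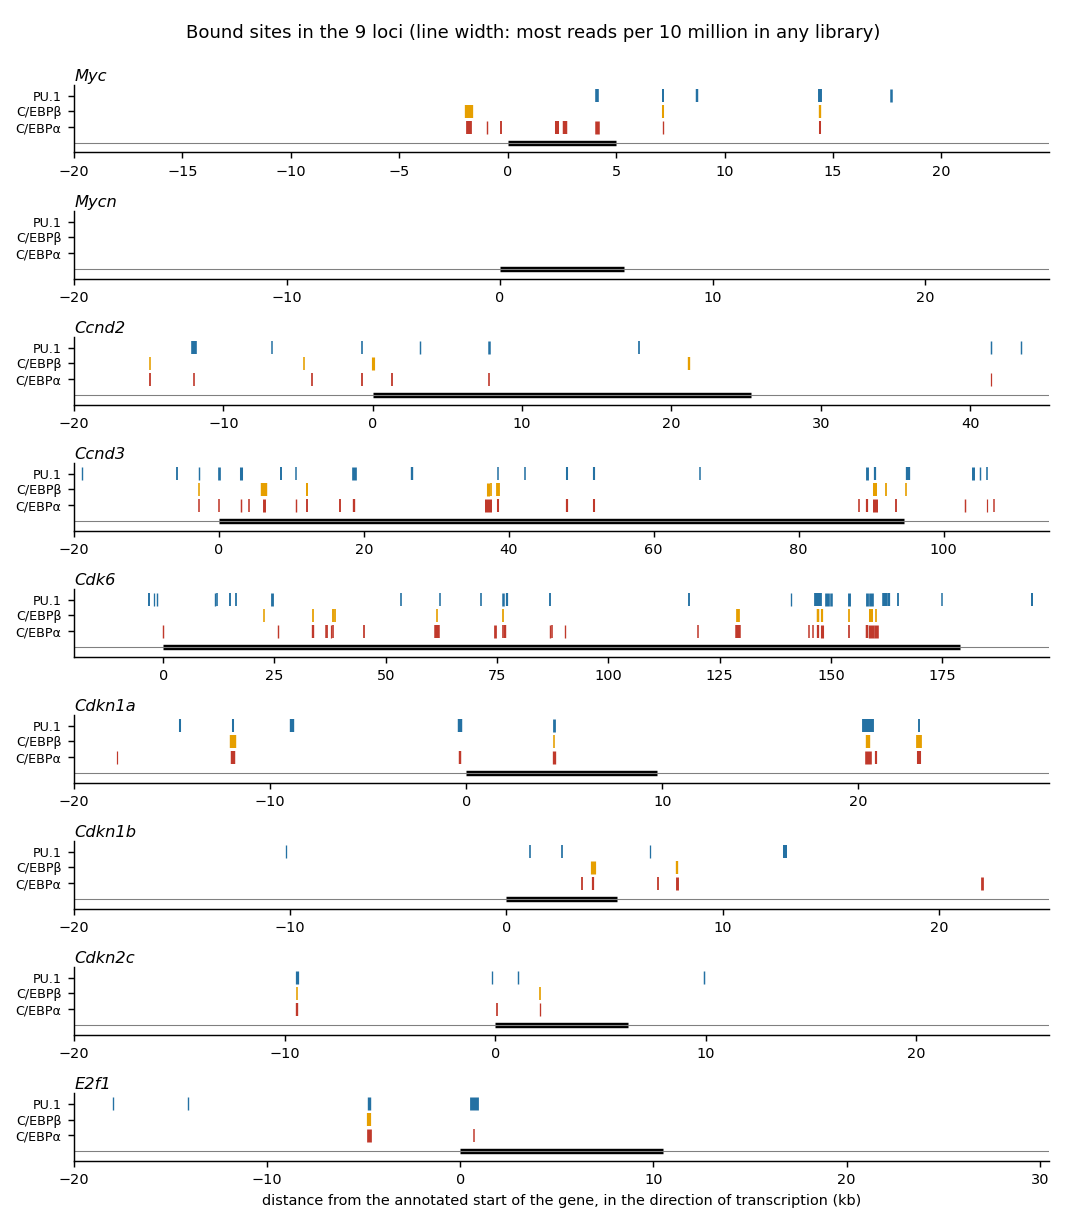
Sites of C/EBPα (red), C/EBPβ (orange) and PU.1 (blue) called in any library in each of the 9 loci. The horizontal axis is the distance from the annotated gene start in kb, in the direction of transcription and on a scale of its own in each panel, the black bar is the gene, and line width follows the highest level in any library. *Mycn* is empty, and *Cdk6* holds 51 of the 136 sites.

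*Cdk6* held 51 sites, *Ccnd3* 32, *Ccnd2* 14, *Myc* 10, *Cdkn1b* 10, *Cdkn1a* 9, *Cdkn2c* 6 and *E2f1* 4. C/EBPα was called at 79 of the 136 sites, C/EBPβ at 38 and PU.1 at 81. Of the 38 C/EBPβ sites 30 were also C/EBPα sites (77.2% over the genome), while 49 of the 81 PU.1 sites had neither C/EBP (77.6% over the genome). All 3 factors were called at 15 sites (7.32% of all sites in the genome), which lay in the loci of *Cdkn1a* (4), *Cdk6* (4), *Ccnd3* (3), *Myc* (2), *Cdkn2c* (1) and *E2f1* (1). The calls of a site could come from different times and from centres apart, so that this is no count of joint binding. Of the 136 sites, 15 were within 1 kb of a start of the member itself, 79 were in introns, and for 43 the nearest start belonged to another gene, for 26 of these *Gm17590*, a gene model inside *Cdk6*. Sites close to the start of another gene are not among the 15, and no genome-wide share was computed for these counts.

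The factors differed in how long their sites were called. For C/EBPα, 9 of 79 sites were called at 0 h (7.10% of all C/EBPα sites of the genome), 23 at 48 h (21.7%), 6 in all libraries (2.45%) and 23 in 1 library alone (40.1%). For C/EBPβ, 7 of 38 were called at 0 h (6.03% of all), 31 at 48 h (82.9%), 4 in all libraries (2.86%) and 21 in 1 library (58.0%). For PU.1, 40 of 81 were called at 0 h (41.9% of all), 45 at 48 h (55.1%), 26 in all libraries (24.9%) and 22 in 1 library (32.0%). A larger share of the PU.1 than of the C/EBP sites in these loci was thus called before induction. Of the C/EBPα sites, 19 were first called at 10 min (20.2% of all C/EBPα sites), 18 at 30 min (21.3%), 7 at 60 min (20.8%), 7 at 3 h (17.0%), 15 at 12 h (7.29%), 3 at 24 h (3.56%) and 1 at 48 h (2.81%). The 10 min library was the deepest of C/EBPα and the 12 h library the shallowest, and the part of depth in these counts was not tested. Without the 10, 30 and 60 min libraries the count of C/EBPα sites was 58, and without the 12 h library 73, both computed after the data had been seen.

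Levels were then compared with 0 h, with 1 added to each level before the log, and counted as changed past 2-fold. C/EBPα was higher at 45 of its 79 sites at 60 min (60.8% of all C/EBPα sites) and lower at 8 (8.19%). At 3 h it was higher at 44 (65.6%) and lower at 2 (3.33%), and at 48 h it was higher at 29 (38.4%) and lower at 11 (14.1%). Fewer of these sites also had a ratio whose interval excluded 1. By this stricter rule, 37 of all 79 sites were higher at 60 min (44.4% of all C/EBPα sites) and 1 was lower (2.83%). At 3 h 29 of the 79 were higher (45.6%) and 0 lower (0.522%). At 48 h 15 of the 79 were higher (18%) and 3 lower (1.45%). The median log2 ratio over the members' sites was 0.22 at 10 min, 1.5 at 30 min, 1.46 at 60 min, 1.33 at 3 h, 1.39 at 12 h, 0.79 at 24 h and 0.56 at 48 h, beside 0.19, 1.19, 1.5, 1.62, 1.19, 0.77 and 0.55 over all C/EBPα sites. The members' median was thus highest at 30 min and that of all C/EBPα sites at 3 h, and both were lower at 24 and 48 h than from 30 min to 12 h. From 3 to 12 h the members' median went from 1.33 to 1.39, while that of all sites went from 1.62 to 1.19. The sites were called in these same libraries, so that a rise and later fall is a description. The part that the choice of sites has in it was not tested.

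**Figure D2:**
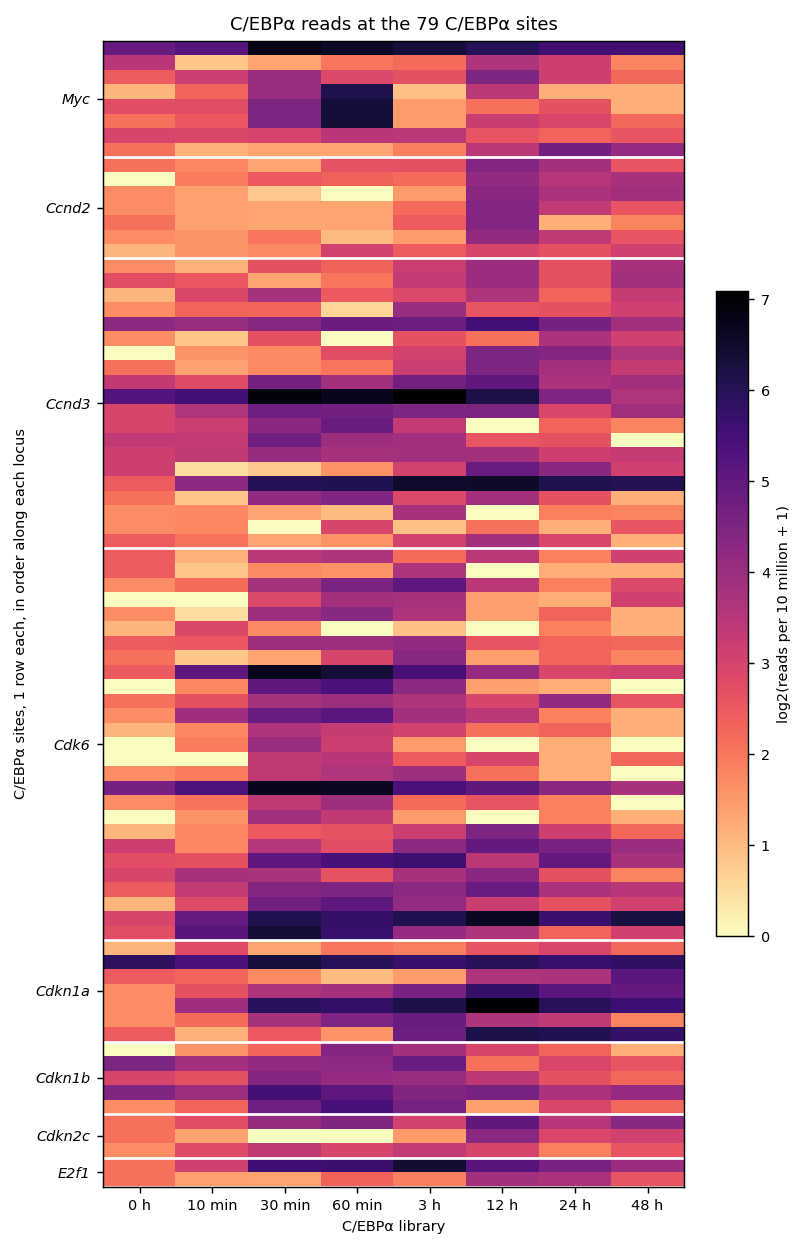
Level of C/EBPα at its 79 sites in the 9 loci (rows, grouped by gene and ordered along each locus) in the 8 C/EBPα libraries (columns), as log2 of reads per 10000000 plus 1. Many *Cdk6* rows are dark at 30 and 60 min and pale at 48 h, most *Ccnd2* rows are darkest at 12 h, and 3 *Myc* rows are dark at 60 min.

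C/EBPβ moved later. It was higher than at 0 h at 16 of its 38 sites at 3 h (50.2% of all C/EBPβ sites) and lower at 5 (10.4%), and at 48 h it was higher at 30 (84.8%) and lower at 3 (3.23%). Its median log2 ratio over the members' sites was 0.73 at 3 h, 0.71 at 12 h, 1.15 at 24 h and 2.05 at 48 h, beside 1.03, 1.19, 1.83 and 2.52 over all sites. PU.1 was higher at 12 h at 30 of its 81 sites (39.2% of all PU.1 sites) and lower at 3 (5.97%), and at 48 h higher at 19 (27.4%) and lower at 10 (18.9%). Its median log2 ratio was 0.33 at 3 h, 0.79 at 12 h, 0.18 at 24 h and 0.01 at 48 h, beside 0.21, 0.71, 0.19 and 0.14 over all sites. The sites were called in the same libraries, so that a gain is a description. With an interval that also excluded 1, C/EBPβ was higher at 4 of its 38 sites (19.2% of all C/EBPβ sites) and lower at 1 (0.664%) at 3 h. At 48 h C/EBPβ was higher by this rule at 19 of the 38 (62.6%) and lower at 1 (0.781%). By the same rule PU.1 was higher at 22 of its 81 sites (24.0% of all PU.1 sites) and lower at 3 (3.57%) at 12 h. At 48 h PU.1 was higher at 9 of the 81 (16.1%) and lower at 6 (11.3%).

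*Myc*, the proto-oncogene that drives growth and division, had 8 C/EBPα, 3 C/EBPβ and 5 PU.1 sites. The strongest C/EBP site lay 1.79 kb upstream of the gene and was called in all 13 C/EBP libraries. Its C/EBPα level was 28.2 at 0 h, 35.3 at 10 min, 108 at 30 min, 94.2 at 60 min, 79.1 at 3 h, 63.6 at 12 h, 46.1 at 24 h and 45.2 at 48 h. C/EBPα thus peaked at 30 min, 3.85 times the 0 h level (2.5 to 6.15), and at 48 h the ratio was 1.6 (0.937 to 2.79), within counting error of no change, and the level 0.572 times that at 3 h (0.377 to 0.852). C/EBPβ at this site was highest in its last library, with levels of 18.7, 41.1, 44.8, 102 and 164 at 0, 3, 12, 24 and 48 h, the last 8.75 times the first (4.24 to 20.9). PU.1 was at 0 to 1.87 there in its 5 libraries, so that this site was bound by the C/EBP factors without PU.1.

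Downstream of *Myc*, all 3 factors were called at the site at 14.4 kb, PU.1 at 0, 12, 24 and 48 h, C/EBPα at 24 and 48 h and C/EBPβ at 48 h. PU.1 there was at 11.3 at 0 h, 6.08 at 3 h, 67.2 at 12 h, 61.7 at 24 h and 28.7 at 48 h. The 12 h level was 5.92 times that at 0 h (2.85 to 14.2). C/EBPα was between 1.2 and 3.38 up to 3 h and reached 10, 25 and 16.3 at 12, 24 and 48 h. C/EBPβ had no read at 0 and 3 h and levels of 10.3, 12.8 and 31.5 afterwards. The last was 4.5 times what 3 reads would give at 0 h, a value without counting error. The site at 7.18 kb, the other one with all 3 factors, was weaker, with PU.1 at 5.67 at 0 h and 23.9 at 48 h and C/EBPα between 3.95 and 10.2.

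Reads over the coding exons of *Myc* stood apart in the early C/EBPα libraries. Coding sequence of 1362 bp held 321 reads per kb per 10000000 reads at 60 min and 91.5 at 30 min, beside 18.9 at 10 min, 17.4 at 0 h and 7.92 at 3 h. In the same 60 min library the untranslated exon parts of *Myc* held 12.5 and its introns 7.9. The ratio of coding to intron reads of *Myc* was 39.5 at 60 min, rank 13 of 16761 genes, against a median gene at 1.17, and 11.8 at 30 min, rank 102. C/EBPα calls at 2.28, 2.65 and 4.14 kb downstream rest on these reads, and their levels at 60 min were 69.1, 79.3 and 80.4. Where these reads come from was not tested, and from read positions alone, C/EBPα binding at these 3 sites and reads of another origin cannot be told apart. Without those calls, a choice made after the data had been seen, the 9 loci held 76 C/EBPα sites, 5 of them at *Myc*. The site at 4.14 kb was also called for PU.1 in all 5 libraries, with the PU.1 signal nearer to the gene start (highest bin at 3954 bp at 0 h), at 29.8, 42.6, 59.7, 49.3 and 53.5.

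**Figure D3:**
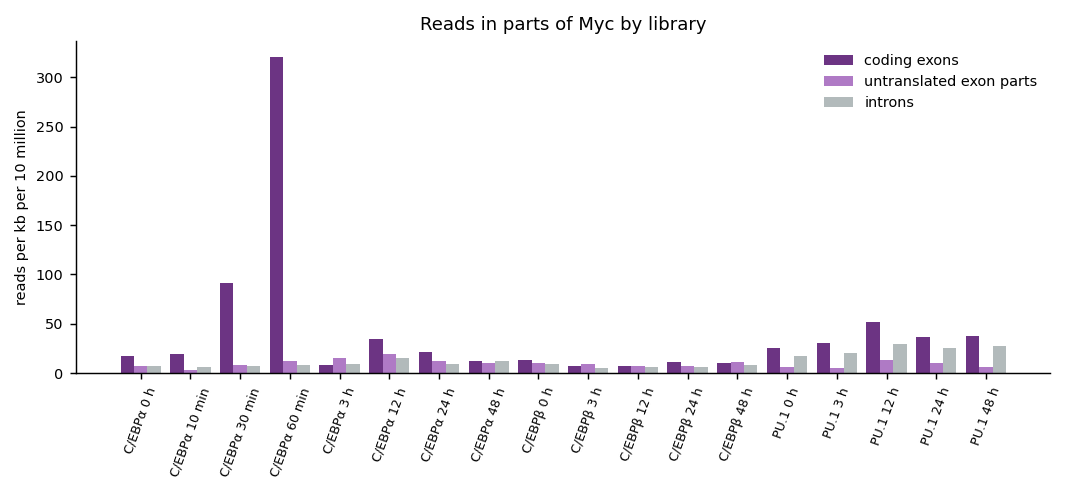
Reads per kb per 10000000 in the coding exons, the untranslated exon parts and the introns of *Myc* in each of the 18 libraries. The coding bars of the C/EBPα libraries of 30 min (91.5) and 60 min (321) rise above all others.

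*Mycn*, which encodes the Myc protein of embryonic and neural tissue, held no site, and no 200-bp bin of its locus exceeded 10.3 reads per 10000000. That value, in the C/EBPβ library of 12 h, stands on the shallowest library, and the other 17 libraries had 2.8 to 6.59 in their highest bin. At this depth, binding was not detectable at *Mycn*.

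*Ccnd2*, cyclin D2, had 7 C/EBPα, 4 C/EBPβ and 8 PU.1 sites and was most strongly bound by PU.1. Its strongest PU.1 site, 12 kb upstream, was at 36.9 at 0 h, 51.7 at 3 h, 105 at 12 h, 83.7 at 24 h and 91.7 at 48 h. All later ratios at that site exceeded 1, and those at 12 h (2.86, 1.85 to 4.57), 24 h and 48 h (2.49, 1.6 to 4) did so beyond counting error. In the highest 200-bp bin of the locus, which is not centred on the site, the ratios were 1.74 (1.17 to 2.63) at 12 h and 1.91 (1.29 to 2.87) at 48 h. C/EBPβ was strongest at the start of *Ccnd2*, 0.034 kb into its untranslated first exon, with 11.7 at 0 h, 5.13 at 3 h, 17.2 at 12 h, 22.4 at 24 h and 49.3 at 48 h. The last was 4.22 times the first (1.59 to 14.1). C/EBPα was weak throughout, and its best site, in the intron at 1.31 kb, reached 20.1 at 12 h and was at or below 4.49 in the other 7 libraries. The 12 h library, the shallowest of C/EBPα, held 6 C/EBPα calls at *Ccnd2*, while the other libraries held 0 to 2. No site of *Ccnd2* was called for all 3 factors.

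*Ccnd3*, cyclin D3, the D-type cyclin that pre-B cells need to expand, had 20 C/EBPα, 9 C/EBPβ and 20 PU.1 sites. Its most strongly bound C/EBPα site, in the intron at 37.1 kb, held C/EBPα before induction, was highest at 3 h and ended below its 0 h level. C/EBPα there was at 36.1 at 0 h, 46.2 at 10 min, 121 at 30 min, 101 at 60 min, 135 at 3 h, 72 at 12 h, 21.1 at 24 h and 11.3 at 48 h. The 3 h level was 3.74 times that at 0 h (2.54 to 5.66), and the 48 h level 0.313 times that at 0 h (0.132 to 0.672) and 0.0839 times that at 3 h (0.0376 to 0.164). C/EBPβ at the same place was at 18.7, 47.9, 31, 22.4 and 31.5, and PU.1 at most at 8.4.

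The intronic *Ccnd3* site at 90.6 kb, 2.19 kb beyond an internal start of the gene, behaved differently and kept C/EBPα to the end. C/EBPα there was at 4.51 at 0 h, 17.7 at 10 min, 62.3 at 30 min, 66 at 60 min, 89 at 3 h, 90.4 at 12 h, 68.5 at 24 h and 65.4 at 48 h. The 48 h level was 14.5 times that at 0 h (5.33 to 55.2) and 0.735 times that at 3 h (0.515 to 1.04). C/EBPβ followed, from 2.33 at 0 h to 17.1, 13.8, 54.4 and 69. PU.1 was at 4.25, 13.7, 28.9, 19.4 and 7.64 and was called at 12 h alone, with 6.8 times the 0 h level (2.12 to 34.8).

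At other *Ccnd3* sites single factors moved. C/EBPβ at 6.23 kb was at 11.7 at 0 h, 18.8 at 3 h, 27.6 at 12 h, 57.6 at 24 h and 122 at 48 h, a ratio of 10.5 (4.25 to 33.4), while C/EBPα at the same site lay between 13.8 and 45.2. PU.1 at 18.6 kb was called in all 5 libraries, at 48.2, 66.9, 84, 54.6 and 55.4, highest at 12 h (1.74 times the 0 h level, 1.16 to 2.67). Of the other sites with all 3 factors, that at 38.5 kb had C/EBPβ at 4.67 at 0 h and 65 at 48 h, 13.9 times as much (3.56 to 120), with PU.1 between 7.6 and 14.1. The site 2.77 kb upstream lay 4 bp from the start of the neighbouring gene *Taf8*, a TFIID subunit, and no factor exceeded 15.8 there.

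*Cdk6*, the kinase partner of the D-type cyclins in blood cells, had 27 C/EBPα, 13 C/EBPβ and 28 PU.1 sites along its long introns. C/EBPα calls in the locus numbered 1 at 0 h, 7 at 10 min, 17 at 30 min, 18 at 60 min, 15 at 3 h, 7 at 12 h, 5 at 24 h and 4 at 48 h. Over the genome the same libraries held 2807, 9735, 16687, 23671, 22477, 12382, 9848 and 8583 calls, also highest at 60 min. The site with the highest C/EBPα level lay at 61.4 kb. It was at 4.51 at 0 h, 32.9 at 10 min, 102 at 30 min, 80.4 at 60 min, 43.1 at 3 h, 16.7 at 12 h, 6.59 at 24 h and 7.54 at 48 h. The C/EBPα ratio to 0 h was 7.3 at 10 min (2.74 to 27.4), 22.5 at 30 min (8.59 to 83.8), 9.56 at 3 h (3.5 to 36.5) and 1.67 at 48 h (0.396 to 8.05). The 48 h level was 0.175 times that at 3 h (0.0611 to 0.409). C/EBPβ at this site was at 17.1 at 3 h and otherwise at or below 6.4, and PU.1 at or below 9.12.

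The *Cdk6* intron site at 159 kb was bound by all 3 factors and was still called for each at 48 h. C/EBPα rose there from 6.77 at 0 h to 29.7 at 10 min, 66.1 at 30 min, 54.2 at 60 min, 66.5 at 3 h, 98.8 at 12 h, 50.1 at 24 h and 72.9 at 48 h, at the end 10.8 times the first level (4.66 to 30.6) and 1.1 times that at 3 h (0.764 to 1.57). PU.1 was already at 44 at 0 h and then at 51.7, 83.1, 57.3 and 67.8. C/EBPβ was at 16.3, 24, 17.2, 28.8 and 69, the last 4.22 times the first (1.85 to 11.3). The *Cdk6* sites at 61.4 and 159 kb thus both held few C/EBPα reads at 0 h, and ended at 7.54 and 72.9.

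PU.1 was strongest in *Cdk6* at 147 kb, where it was lower at 12 and 24 h than at 0 h. Its levels were 121 at 0 h, 152 at 3 h, 84.9 at 12 h, 62.6 at 24 h and 88.9 at 48 h, with a ratio of 0.705 at 12 h (0.519 to 0.959), 0.519 at 24 h (0.373 to 0.72) and 0.737 at 48 h (0.543 to 1). C/EBPα there was called at 12 h alone (21.8) and C/EBPβ at 24 h alone (28.8). The sites at 76.4 and 154 kb also had all 3 factors. PU.1 at 76.4 kb was at 12.8, 33.5, 35.5, 22 and 12.4, and at 154 kb at 31.2, 44.1, 35.5, 22.9 and 25.8, while neither C/EBP exceeded 19.2 at either. C/EBPβ at 154 kb was lower at 48 h than at 0 h. Its log2 ratio, with 1 added to each level, was -4.30, and -1.17 with reads within 250 bp.

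*Cdkn1a*, which encodes the Cdk inhibitor p21, had 7 C/EBPα, 4 C/EBPβ and 7 PU.1 sites in 49.7 kb, and 4 of its 9 sites had all 3 factors. These 4 differed in the levels of the factors before induction. At 20.5 kb PU.1 was high before induction, with levels of 230 at 0 h, 243 at 3 h, 141 at 12 h, 121 at 24 h and 199 at 48 h, and those at 0, 3 and 48 h were the highest of PU.1 in the 9 loci. C/EBPα joined from 2.26 at 0 h to 14 at 10 min, 60 at 30 min, 54.2 at 60 min, 71 at 3 h, 127 at 12 h, 62 at 24 h and 47.8 at 48 h. The C/EBPα ratio to 0 h was 56.4 at 12 h (15.1 to 474) and 21.2 at 48 h (5.47 to 181), both against 2 reads at 0 h, and the 48 h level was 0.375 times that at 12 h (0.247 to 0.561). C/EBPβ was at 2.33, 35.9, 27.6, 76.8 and 65. PU.1 at 24 h was 0.525 times its 0 h level (0.415 to 0.664), and at 48 h 0.865 times (0.701 to 1.07).

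At the *Cdkn1a* site at 23.1 kb, less than 3 kb farther out, none of the factors was called at 0 h. C/EBPα was at 4.51 at 0 h and between 1.2 and 4.61 at 10, 30 and 60 min, and then at 27 at 3 h, 70.3 at 12 h, 65.9 at 24 h and 54 at 48 h. This late gain was 5.98-fold at 3 h (2.11 to 23.3) and 12-fold at 48 h (4.35 to 46), and the 48 h level was 2 times that at 3 h (1.23 to 3.31). C/EBPβ had no read at 0 h, then levels of 8.56, 17.2, 76.8 and 108. The last was 15.5 times what 3 reads would give at 0 h, a value without counting error. PU.1 was at 1.42, 6.08, 18.7, 22 and 15.3.

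The *Cdkn1a* site 11.9 kb upstream was occupied by C/EBPα throughout, at 57.5, 40.9, 78.4, 61.9, 50.3, 62, 51.4 and 56.6 from 0 h to 48 h. Its 48 h level was 0.983 times that at 0 h (0.644 to 1.5). C/EBPβ, also called there at 0 h, went from 23.3 at 0 h to 25.7, 79.2, 57.6 and 122, a ratio of 5.23 (2.66 to 11.4), and PU.1 stayed between 7.64 and 25.2. In the intron at 4.47 kb, C/EBPα went from 2.26 at 0 h to 53.6 at 12 h and 30.2 at 48 h, 13.4 times the first level (3.32 to 117), with PU.1 at 17, 15.2, 42, 27.3 and 11.5 and C/EBPβ at most at 15.8.

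**Figure D4:**
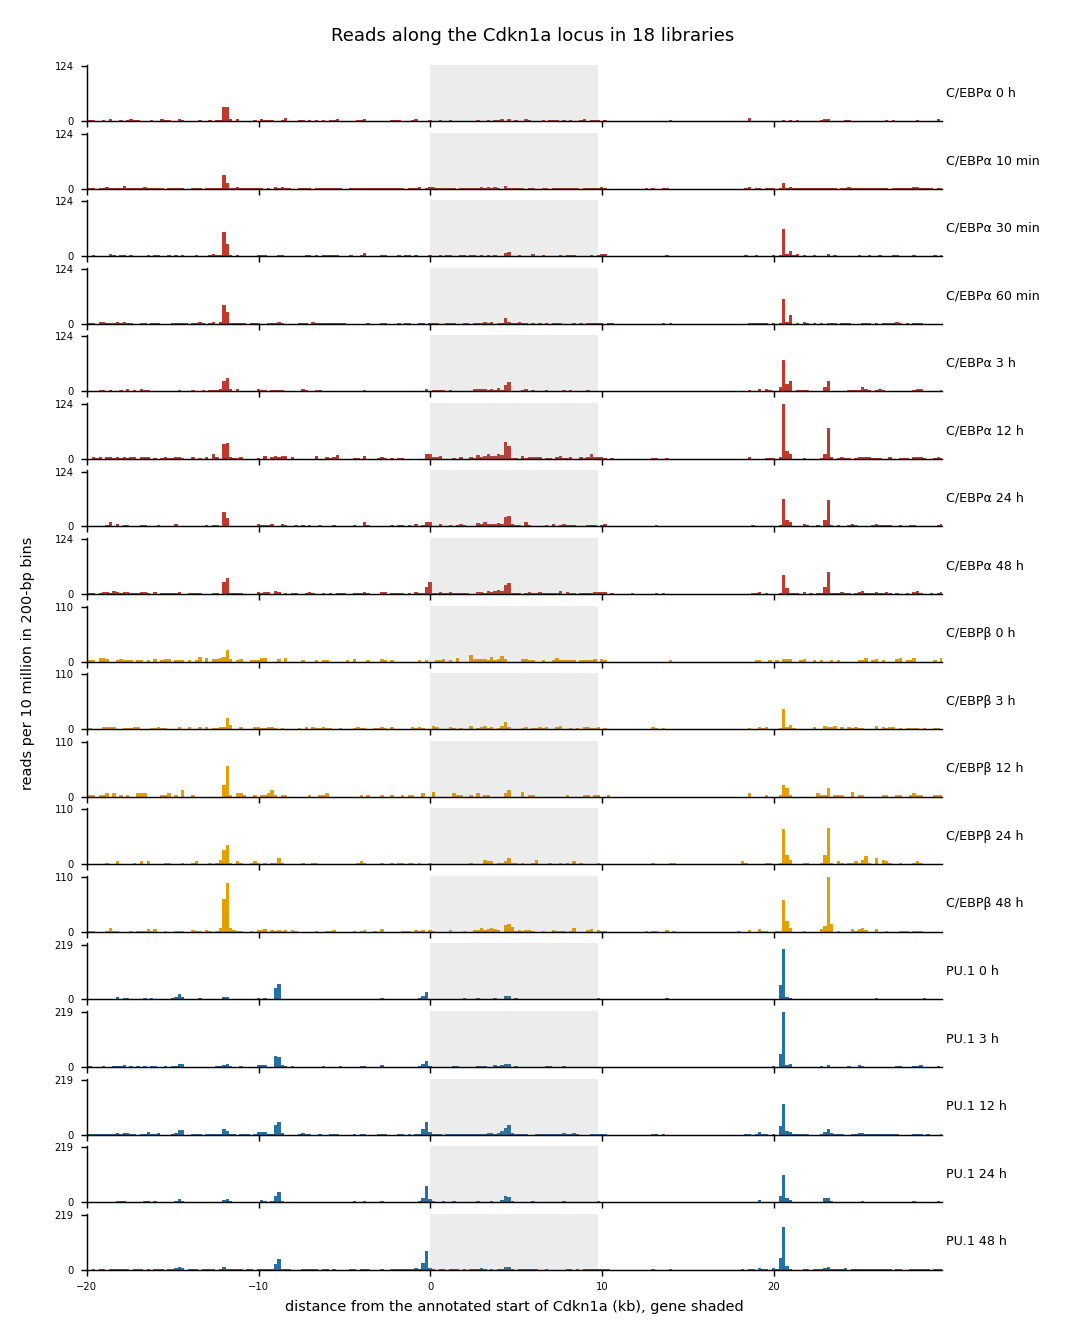
Reads per 10000000 in 200-bp bins along the *Cdkn1a* locus in the 18 libraries, against the distance from the annotated gene start in kb, with the gene shaded and 1 vertical scale per factor. PU.1 stands at 20.5 kb from 0 h on, C/EBPα appears there from 10 min, and C/EBP signal at 23.1 kb appears from 3 h on.

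*Cdkn1b*, which encodes p27, had 5 C/EBPα, 2 C/EBPβ and 5 PU.1 sites, none of them shared by all 3 factors. In an untranslated exon part at 4 kb, C/EBPα and C/EBPβ went in opposite directions. C/EBPα was at 21.4 at 0 h, 13.2 at 10 min, 16.9 at 30 min, 17.9 at 60 min, 28.8 at 3 h, 3.35 at 12 h, 6.59 at 24 h and 5.03 at 48 h, and at 48 h it was 0.235 times the 0 h level (0.0581 to 0.706). C/EBPβ was at 21, 29.1, 27.6, 76.8 and 94.6, the last 4.5 times the first (2.18 to 10.4). The strongest C/EBPα site of *Cdkn1b*, at 7.91 kb, was called in all 8 libraries and reached 44.6 at 30 min from 20.3 at 0 h, a ratio of 2.2 (1.28 to 3.96), and was at 16.3 at 48 h. PU.1 at 12.9 kb was at 45.4, 51.7, 55.1, 33.5 and 68.8, with no ratio to 0 h beyond counting error and both C/EBP factors at or below 3.94.

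*Cdkn2c*, which encodes the Cdk4/Cdk6 inhibitor p18, was weakly bound. Its strongest C/EBPα and PU.1 site, the one called for all 3 factors, lay 9.43 kb upstream, 27 bp from the start of the neighbouring gene *Faf1*, a Fas-associated protein. C/EBPα there was at 3.38 at 0 h and reached 31.8 at 12 h, in the shallowest C/EBPα library, 9.41 times as much (2.77 to 49.6). It was bound earlier as well. The 200-bp bin that holds the site was at 9.63 at 10 min, 23.8 at 30 min, 27.1 at 60 min, 25.1 at 12 h and 16.3 at 48 h. No C/EBPα region of the locus was called at 0, 3 and 24 h. PU.1 at the site was at 22.7, 19.8, 51.3, 35.2 and 22.9. Within the gene, C/EBPβ in the coding exon at 2.14 kb was called at 48 h alone, at 17.7 against 4.67 at 0 h, a ratio of 3.8 whose interval (0.786 to 36.1) includes 1.

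*E2f1*, the transcription factor released from Rb at the start of S phase, had 4 sites. At 4.74 kb upstream all 3 factors were called. C/EBPα was at 3.38 at 0 h, 7.63 at 10 min, 46.9 at 30 min, 49.6 at 60 min, 84.5 at 3 h, 35.2 at 12 h, 22.4 at 24 h and 15.1 at 48 h. The 3 h level was 25 times that at 0 h (8.29 to 123), and the 48 h level 0.179 times that at 3 h (0.0891 to 0.327). C/EBPβ was at 16.3, 37.6, 37.9, 35.2 and 72.9, and PU.1 was flat at 51, 47.1, 39.2, 42.3 and 55.4. These C/EBPα levels belong to 1 of a pair of maxima in the site. At the other, 4.47 kb upstream, which held the 0 h call, the C/EBPβ centre and the highest C/EBPα bin of the locus in all 8 libraries, the bin levels were 9.02, 14.4, 57.7, 51.2, 84.5, 43.5, 29 and 32.7. There the 3 h ratio to 0 h was 9.36 (4.56 to 22.3) and the 48 h level 0.387 times that at 3 h (0.24 to 0.603), a smaller rise and fall, again highest at 3 h, computed after the data had been seen. PU.1 in an untranslated exon part at 0.687 kb was at 169, 161, 175, 144 and 135, and its ratios to 0 h all had intervals that included 1, with a 48 h ratio of 0.798 (0.621 to 1.03).

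**Figure D5:**
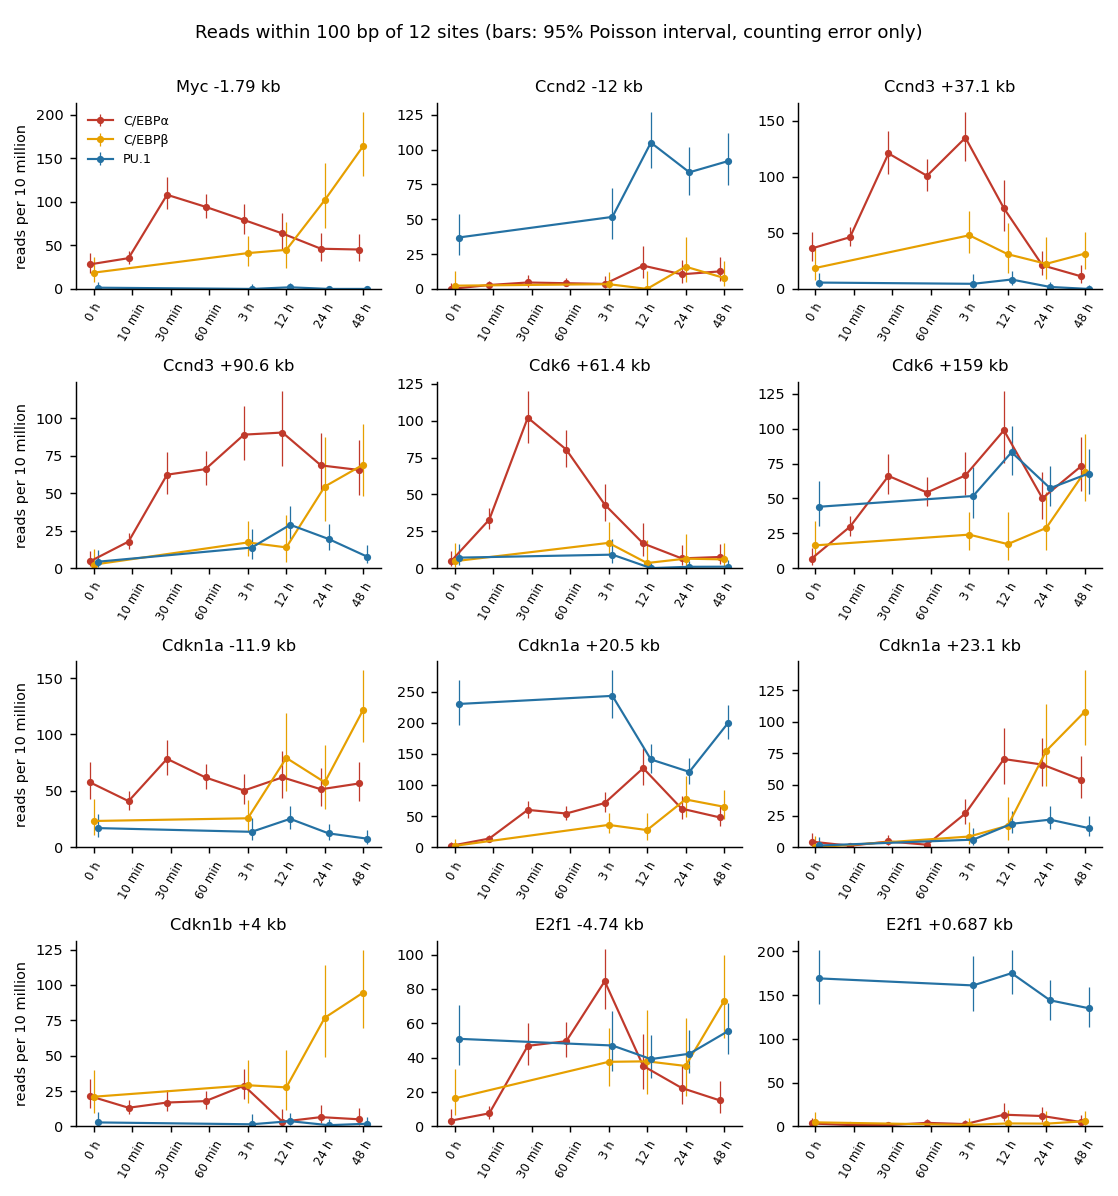
Level of C/EBPα (red), C/EBPβ (orange) and PU.1 (blue), in reads per 10000000 within 100 bp of the centre, against time of induction at 12 named sites, with the vertical scale set per panel, time points evenly spaced and not to scale, and bars for the 95% Poisson interval of the count. At *Myc* 1.79 kb upstream and *Cdk6* 61.4 kb C/EBPα is highest at 30 min, and at *Ccnd3* 37.1 kb and *E2f1* 4.74 kb upstream at 3 h. Over all 12 panels, called or not, C/EBPβ is highest at 48 h in 8. C/EBPβ was called in no library at the *Ccnd2* site and at the *E2f1* site inside the gene, so its points there are reads at uncalled places.

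Among 40 other genes of the cell-cycle engine and the Myc network, all of which were found in the annotation, 29 loci had a C/EBPα site, 26 a C/EBPβ site and 39 a PU.1 site in some library, beside 61.8%, 44.0% and 77.8% of all loci. At 0 h the counts were 9, 4 and 34 of the 40 (14.1%, 5.88% and 62.4% of all loci), and at 48 h 16, 24 and 37 (31.1%, 41.2% and 66.3%). *Rb1*, which encodes the retinoblastoma protein, had 20 C/EBPα, 13 C/EBPβ and 16 PU.1 sites, and *Mxi1*, a Myc antagonist, had 10, 4 and 10. The 11 genes without a site of either C/EBP factor were *Cdk1*, *Ccne1*, *Ccne2*, *Ccnb1*, *Ccnb2*, *Cdc25a*, *Cdkn1c*, *E2f3*, *E2f5*, *E2f6* and *Mga*, and all of them but *E2f6* had PU.1 sites. Other cyclin, Cdk and Cdc25 genes did have C/EBPα sites, among them *Ccna2* (2), *Cdk2* (1) and *Cdc25b* (5). These genes of the list are examples chosen after their counts were seen, and the list itself was set with earlier results of these data known.

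The C/EBP word was in 17 of the 79 members' C/EBPα windows (21.5%, against 31.9% of all C/EBPα sites) and in 11 of 38 C/EBPβ windows (28.9% against 41.5%). The PU.1 word was in 15 of 81 PU.1 windows (18.5% against 23.5%). AP-1 words were in 7.59% of C/EBPα, 10.5% of C/EBPβ and 12.3% of PU.1 windows of the members, against 8.82%, 14.1% and 9.98% of all. RUNX words were in 7.59%, 10.5% and 7.41%, against 9.63%, 9.05% and 5.91%, and EBF1 words in 5.06%, 0% and 6.17%, against 8.62%, 5.08% and 4.69%. A word match is a description of the sequence and not a measured contact.

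The pattern of a whole locus over the 18 libraries was summarised by its highest 200-bp bin, on the log2 scale with 1 added, and set beside those of all other genes. Libraries of 1 factor share an antibody and depth differs between libraries, so the correlations are descriptions. The nearest genes to *Myc* were *Arap2* (Pearson r = 0.923) and *2510012J08Rik* (0.903), with a median of 0.13 over all genes. The highest *Myc* bin of the 60 min C/EBPα library lies in the coding exon described above. Without that library, a choice made after the data had been seen, *Arap2* (0.931) and *Anxa9* (0.905) were nearest and the median was 0.21. *Ccnd2* was nearest to *Fam38a* (0.980) and *Podxl2* (0.978) with a median of 0.61, and *Ccnd3* to *Slc44a3* (0.924) and *Atp6v0a1* (0.906) with a median of 0.07. *Cdk6* was nearest to *Il17rd* (0.951) and *Plcg2* (0.944), *Cdkn1a* to *Irg1* and *Pik3cg* (0.966 each), and *E2f1* to *5830405N20Rik* (0.979) and *Gabpb1* (0.971). *Cdkn1b* was nearest to *9130221H12Rik* (0.904) and *Engase* (0.895), *Cdkn2c* to *Batf3* (0.847) and *Lrrc57* (0.844), and *Mycn*, whose bins hold background, to *Ctla2a* (0.896) and *Gm8237* (0.866). For *Cdk6*, *Cdkn1a*, *E2f1*, *Cdkn1b*, *Cdkn2c* and *Mycn* the medians over all genes were 0.36, 0.58, 0.58, 0.46, 0.36 and -0.03.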

How the data were processed

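ChIP-seq for C/EBPα, C/EBPβ and PU.1 was made in C10 cells, 1 library per factor and time (18 in all). The authors ran the Illumina pipeline, aligned to mm9 by ELAND or by Bowtie (no mismatch allowed), and dropped duplicate reads and those without a unique place. The tool versions are not given in the sources used here. The authors deposited read positions with strand, without counts or a control library, and reads were counted from these files.

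The 5′ end of each read was moved 75 bp inward and 1 read was kept per position and strand. Reads on unplaced contigs, and 1 line without position, were left out. Windows of 200 bp were called at a genome-wide Poisson p of 1e-07 (genome of 2000000000 bp) with a 4-fold excess over the surrounding 10 kb at a local Poisson p of 0.0001, after the rules of HOMER, and maxima were kept at least 400 bp apart. Calls of all libraries were chained into 1 site where the next centre lay within 200 bp. Levels and ratios used reads within 100 bp of a centre, with 95% exact Poisson and exact conditional binomial intervals. A ratio against 0 reads was set against a floor of 3 reads. The calling of regions was tested on simulated reads.

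With 1 library per factor and time, no test between conditions was made and the spread between cultures is unknown. Depth, 2903580 to 24917810 reads, set the thresholds of 7 to 15 reads. At most 4.17% of the chromosome 1 positions of the smaller library of a pair were shared. The members and gene lists were chosen with earlier results of these data known. Named sites were, per member and factor, the site with the highest level in any library, and every site of all 3 factors. For the nearest loci, the highest r outside 1 Mb was taken. Alternatives were other call thresholds, thinning, duplicates kept, merging, scaling, windows, folds and pseudocounts. PU.1 libraries of 10, 30 and 60 min were not analysed here. Python 3.11.15, NumPy 2.4.6, SciPy 1.17.1, pandas 2.3.3 and Matplotlib 3.10.9 were used.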

Additional observations from a re-analysis of the deposited data

Results flagged for a closer look

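Reads over the coding exons of *Myc* reached 321 per kb per 10000000 reads in the C/EBPα library of 60 min, against 17.4 in the untreated C/EBPα library. Exon density is a measure that the comparisons of sites do not use, but 3 of the 79 C/EBPα sites rest on these reads, and without them C/EBPα was higher at 42 sites at 60 min instead of 45. The cause was not tested.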

How the results depend on the processing

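No paired analysis was possible because each factor and time had 1 library, and for the same reason no library could be left out of a group. With a read threshold 1.5 times higher, 19 C/EBPβ sites were called in place of 38, while C/EBPα sites ranged from 53 to 96 over all settings (79 as reported), PU.1 sites from 56 to 88 (81) and members with a site from 7 to 8. The counts of changed sites moved most. With a fold of 3, C/EBPα was lower at 3 sites at 60 min and 0 at 3 h, and higher at 18 and lower at 6 at 48 h, C/EBPβ was higher at 9 and lower at 3 at 3 h, and PU.1 was higher at 18 at 12 h, and higher at 9 and lower at 3 at 48 h. With a fold of 2 and a counting interval clear of 1, C/EBPα was lower at 1 site at 60 min, higher at 29 and lower at 0 at 3 h, and higher at 15 and lower at 3 at 48 h. C/EBPβ was then higher at 4 and lower at 1 at 3 h, and higher at 19 and lower at 1 at 48 h, and PU.1 higher at 9 and lower at 6 at 48 h. With a pseudocount of 5, C/EBPα was lower at 0 sites at 60 min, higher at 29 and lower at 0 at 3 h, and higher at 17 and lower at 4 at 48 h, C/EBPβ was lower at 2 at 3 h, and PU.1 was higher at 10 and lower at 4 at 48 h. With reads within 250 bp, PU.1 was lower at 6 sites at 48 h. Chosen after seeing the data, leaving out the calls in *Myc* coding exons left 1 site with lower C/EBPα at 3 h. Of 68 ratios of named sites at 48 h, all 204 values under another scaling, window or duplicate rule stayed within the counting interval, and 8 changed sign, 7 of them with the wider window and 1 with the scaling. The C/EBPβ and PU.1 libraries held no duplicate reads, so that the duplicate rule could not move their values. Intervals were wide at low counts, and large shifts stayed inside them. The C/EBPβ log2 ratio at the *Myc* site with the highest PU.1 level was 5.02 in the main setting and 2.47 with the wider window. Scaling to reads away from sites changed the scale between 48 h and 0 h by 0.06 for C/EBPα, 0.14 for C/EBPβ and 0.03 for PU.1 on the log2 scale. With this scaling PU.1 was higher at 40 sites at 12 h in place of 30. Sites near the threshold of 7 to 15 reads could be missed in the shallow C/EBPβ libraries.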
